A study of Oidiodendron maius Zn with 6 samples.

Results

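Mycelium of the fungus Oidiodendron maius Zn grown on bovine serum albumin (BSA) was compared with mycelium grown on glucose, in 4 of the 6 libraries of the series. They were chosen by the labelled carbon source, with 2 libraries for BSA and 2 for glucose, and the other 2 came from plates with peat. All plates were a modified Melin-Norkrans agar at pH 4.7 covered with cellulose membranes, and the mycelium was harvested after 45 days, per the labels' protocols. BSA was supplied at 0.1 g per L and glucose at 1 g per L, so that effects of the kind and of the amount of amendment cannot be told apart. The medium recipe in the labels lists glucose at 1 g per L and diammonium phosphate at 0.075 g per L. The labels do not say whether the BSA plates held these too, and the source names of the glucose libraries carry the code NH4. The fungus grew without a plant, and the labels do not say how many cultures were used. Each condition had 1 library of paired reads and 1 of single reads, of 75 bp, made from total RNA on an Illumina MiSeq.

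Oidiodendron maius belongs to the ascomycetes and lives in mycorrhiza with roots of the heather family, whose plants grow on acid soils where much of the nitrogen is bound in organic matter. A fungus can use a protein such as BSA only after secreted peptidases have cut it into peptides and amino acids, which are then taken up by transporters and can serve as nitrogen and as carbon. Glucose is a readily used sugar, and in many fungi its presence represses genes for the use of other carbon sources. The deposited tables use JGI protein IDs from the Oidma1 annotation to identify gene models and do not pair the IDs with gene names or products. None of the gene groups planned for this comparison, such as peptidases or transporters, could therefore be filled, and the gene models below are described by level, length and behaviour.

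Gene reads numbered 893061 for BSA and 969553 for glucose in the paired-read libraries, and 20008329 for BSA and 22021177 for glucose in the single-read libraries. Within a condition, the 2 libraries were much alike. Unique reads of the paired-read and single-read libraries deviated by 2.11 times the sampling variance for BSA and 1.75 times for glucose. The value was 35.7 between the paired-read library of BSA and the single-read library of glucose, and 21.9 for the opposite pair. The difference between BSA and glucose itself deviated between the 2 layouts by 1.02 times the sampling variance (8850 models with at least 10 unique reads in each of the 4 libraries), where sampling alone gives about 1. The 2 libraries of a condition thus differed by little more than sampling noise once the read layout was allowed for, and they were counted as 1 sample (n = 1 per condition). The differences below have no replicate check, no p-value is given for a single gene model, and intervals cover counting error only.

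Most of the transcriptome stood at a similar level on BSA and on glucose, and the large differences were mainly increases on BSA. Levels are given as CPM, the gene reads of a model scaled to a common library size with TMM factors, which allow for library composition. In one or both conditions 8483 gene models reached 20 CPM, and of these 91.7% lay within 2-fold and 49.9% were higher on BSA. The fitted log2 fold change, BSA over glucose, had its 5th percentile at -0.86 and its 95th at 1.02. At least 4-fold higher on BSA were 73 models, which are 0.504% of the 14497 models tested. At least 4-fold lower on BSA were 23 models, or 0.159% of those tested.

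The imbalance between higher and lower models grew with the size of the change. Between 2-fold and 4-fold, 370 models were higher and 238 lower on BSA. Between 4-fold and 8-fold, 33 were higher and 20 lower. Between 8-fold and 16-fold, 21 were higher and 3 lower. Beyond 16-fold, 19 were higher on BSA (0.131% of those tested), while none of the 14497 models tested, at 20 CPM or more in the higher condition, was lower to that extent. In all 4 libraries together, the 2 BSA libraries lay above both glucose libraries for 72 of the 73 higher models, and below both for all 23 lower models. As background, this held for 29.4% of all models tested in the upward direction and 34.9% in the downward direction, so separation of the libraries alone marks no model out.

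**Figure D1:**
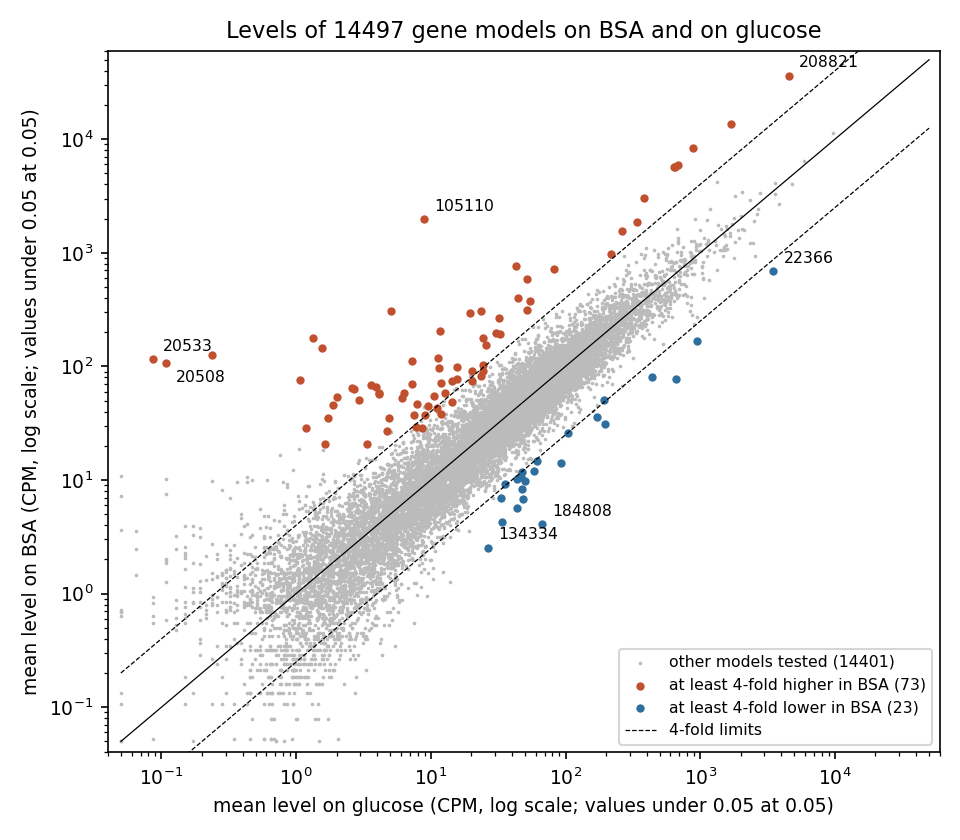
Mean level of each of the 14497 tested gene models on BSA (vertical axis) against glucose (horizontal axis), both in CPM on log scales, each point being the mean of the 2 libraries of a condition. By fitted fold change, 19 of the 73 models at least 4-fold higher on BSA lie beyond 16-fold, while 20 of the 23 lower models lie between 4-fold and 8-fold. None of the lower models had a fitted decrease beyond 16-fold, though the largest was close to it.

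The strongest increases were of models nearly silent on glucose. The model with protein ID 20533 (714 nt) had 114 and 118 CPM in the paired-read and single-read libraries of BSA, against 0 and 0.172 CPM in those of glucose. The glucose level rested on 4 reads, against 2327 on BSA, which is a 714-fold difference with a 95% interval of 278 to 2623. The BSA libraries were close to each other and far above both glucose libraries. The model 20508 (821 nt) had 108 and 104 CPM in the BSA libraries and 0 and 0.215 CPM in the glucose libraries, from 2056 reads on BSA and 5 on glucose, a 505-fold difference (216 to 1556). In the paired-read libraries alone, where glucose had 0 reads of both models, 20533 was at least 38.4-fold and 20508 at least 36.4-fold higher on BSA, with 0 taken as 3 reads in that library. These 2 models were named by a rule on the size of the fold change, while the models below were singled out after their values were seen.

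Few models went from such low levels to abundance. The model 105110 (778 nt) had the highest BSA level among the 19 models at least 16-fold higher, with 2001 and 1930 CPM in the BSA libraries against 6.94 and 10.9 CPM in the glucose libraries. It was 180-fold higher on BSA (159 to 204) by summed reads, 288-fold (140 to 718) in the paired-read libraries, where glucose had 7 reads, and 177-fold (156 to 201) in the single-read libraries. Without the glucose single-read library, summed reads of both BSA layouts gave 279-fold (135 to 693) against the paired-read library of glucose alone. The fit with the layout term then gave a log2 fold change of 8.18, in place of 7.48. The 19 models together took 0.436% of the reads in the paired-read library of BSA and 0.422% in the single-read library, against 0.0106% and 0.0103% on glucose. Their levels on glucose ran from 0.086 to 42.8 CPM, with a median of 2 CPM.

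The 73 higher models differed widely in the level they left on glucose. There were 3 models under 1 CPM on glucose, and these had 106 to 127 CPM on BSA. In all, 21 were under 5 CPM on glucose, with a median of 58.8 CPM on BSA and 2 CPM on glucose and a median log2 fold change of 4.28. A further 25 lay between 5 and 20 CPM on glucose, with medians of 58.5 CPM on BSA and 10.5 CPM on glucose. The remaining 27 had at least 20 CPM on glucose too, with medians of 402 CPM on BSA and 51.4 CPM on glucose and a median log2 fold change of 2.75. Over all 73, the median was 91.5 CPM on BSA and 11.6 CPM on glucose.

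The single most abundant transcript on BSA was one of the 73. The model 208821 (852 nt) had 35927 and 36556 CPM in the BSA libraries, against 4619 and 4473 CPM in the glucose libraries. Its rank by share of reads was 1 on BSA and 4 on glucose in both read layouts. Per length, its RPKM in the deposited tables was 40559 and 40555 on BSA and 5640 and 5545 on glucose. The layouts gave nearly the same fold, 7.78 (7.54 to 8.02) in the paired-read and 8.17 (8.12 to 8.23) in the single-read libraries.

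A group of 6 short models was set apart by high levels and large increases on BSA. They were defined, after their values were seen, as the models under 500 nt, at least 8-fold higher on BSA and with at least 1000 CPM there, and carry the protein IDs 46664, 46665, 111751, 139570, 139572 and 139577. Their lengths were 150 to 459 nt, and their mean levels were 3057 to 13600.4 CPM on BSA and 379 to 1698 CPM on glucose. With 208821, the 7 models had fitted folds between 8 and 9.39. The folds were between 7 and 8.69 in the paired-read libraries and between 8.17 and 9.63 in the single-read libraries. The lower end of the fitted folds of the short models was set by the 8-fold limit. The model 139563 (153 nt), with means of 1860 CPM on BSA and 337 CPM on glucose, missed only this limit. Its log2 fold change was 2.49. The levels of the short models were not alike in the 2 layouts: 46664 (411 nt) had 4738 and 11909 CPM in the paired-read and single-read libraries of BSA, and 545 and 1237 CPM in those of glucose. For 46665 (150 nt) these were 1090 and 5024 CPM on BSA, and 156 and 603 CPM on glucose. Levels of these models therefore depended on the read layout, while the ratio of BSA to glucose within a layout did so far less.

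Reads matching several gene models touched 4 of the 6. For 111751 and 139572, both 246 nt long, all reads of the 4 libraries were shared with another model, so that their levels cannot be told apart from those of the models they share reads with. For 139577 (204 nt) the shared part was 57.9% and 75.7% in the BSA libraries, and 60.7% and 77.2% in the glucose libraries. For 139570 (459 nt) it was 0.093% and 8.91% in the BSA libraries, and 0.0678% and 8.28% in the glucose libraries. These 4 models held 98.5% and 97.9% of all shared reads in the BSA libraries, so they shared reads mostly with one another. The counts of models given here still take the 4 as separate models. The models 46664 and 46665 had only unique reads, and both were over 8-fold higher on BSA by the fitted value.

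**Figure D2:**
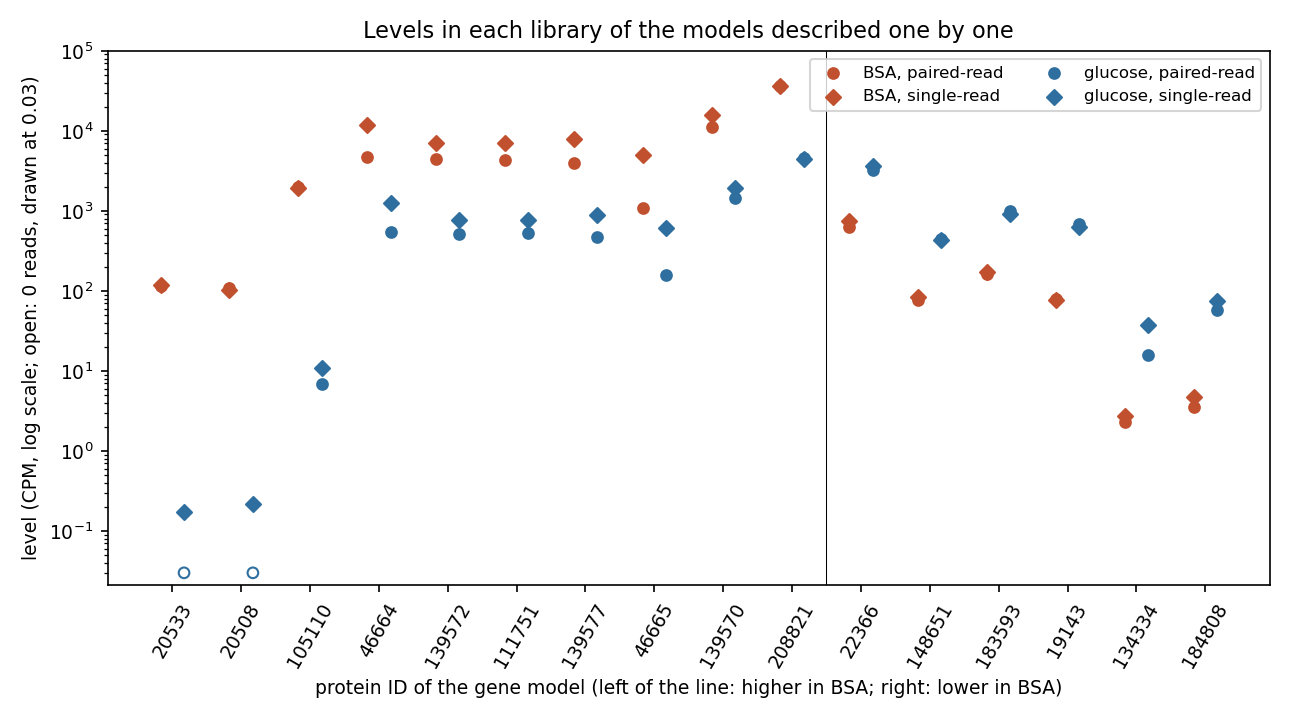
Level in CPM (log scale) in each BSA library (red) and each glucose library (blue) of the models described one by one, with circles for paired-read and diamonds for single-read libraries. For the 10 models left of the line both BSA libraries lie above both glucose libraries, and for the 6 on the right both lie below, while the 2 layouts of the short models 46664 and 46665 stand apart.

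The increase of these few models changed the make-up of the transcript pool. The 73 higher models took 7.73% (7.68 to 7.79) of the reads in the paired-read library of BSA and 10.1% (10.06 to 10.1) in the single-read library, against 1.04% (1.02 to 1.06) and 1.31% (1.307 to 1.317) on glucose. Most of this was held by 208821 and the 6 short models. Without these 7, the other 66 took 1.41% of the reads in both BSA libraries, against 0.178% and 0.187% in the glucose libraries. The 23 lower models took 0.117% (0.11 to 0.124) and 0.128% (0.127 to 0.13) on BSA, against 0.702% (0.686 to 0.719) and 0.749% (0.745 to 0.752) on glucose.

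Gains in share were concentrated and losses were spread. Shares within a library have a fixed sum, so large gains of a few models lower the shares of unchanged models too. Part of the spread of the losses follows from this. Comparing shares of reads in the paired-read libraries, models with a larger share on BSA gained 19.1 percentage points in sum, and in the single-read libraries 18.7. To reach 50% of the gain took 97 models in the paired-read and 27 in the single-read libraries, and to reach 50% of the loss took 505 and 513 models. The single model 208821 accounted for 15.6% and 16% of the gain, and together with the 6 short models for 28.6% and 40.3%. Of the 100 most abundant models on BSA, 71 were also among the 100 most abundant on glucose, in each layout. The 10 most abundant models of a library took 8.79% and 10.7% of the reads on BSA and 4.74% and 4.69% on glucose, and counted by unique reads 8.74% and 9.74% on BSA and 4.74% and 4.7% on glucose.

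Past 4-fold, decreases on BSA were fewer than increases, and in the main fit none reached 16-fold. The model 184808 (436 nt) had 3.49 and 4.71 CPM in the BSA libraries, against 58.5 and 74.8 CPM in the glucose libraries. It was 15.9-fold lower on BSA (12.9 to 19.9), from 92 reads on BSA and 1798 on glucose. Its fitted log2 fold change of -3.99 lay close to the 16-fold limit. With total count scaling it was -4.15 and without the BSA single-read library -4.18, both past 16-fold, while several other alternatives stayed short of it. The model 134334 (387 nt) had 2.33 and 2.75 CPM in the BSA libraries, against 15.9 and 37.1 CPM in the glucose libraries, a 13.3-fold decrease (10.1 to 17.8) from 54 and 879 reads. Its glucose level differed between the layouts, and the decrease was 6.81-fold (1.6 to 61.1) in the paired-read libraries, from 2 reads on BSA and 16 on glucose, and 13.5-fold (10.2 to 18.2) in the single-read libraries. Without the glucose single-read library, summed reads gave a 5.81-fold decrease (3.1 to 10.3) for 134334 and 12.6-fold (8.91 to 17.6) for 184808. These ratios set both BSA layouts against the paired-read library of glucose alone, so they also compare layouts. The fit with the layout term then gave log2 fold changes of -3.49 for 134334 and -3.72 for 184808.

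The largest loss in share of reads belonged to an abundant model. The model 22366 (645 nt) had 630 and 739 CPM in the BSA libraries, against 3279 and 3668 CPM in the glucose libraries, 4.97-fold lower on BSA (4.89 to 5.06). Its rank by share of reads was 175 and 133 in the BSA libraries and 8 and 6 in the glucose libraries. The model 19143 (557 nt) completed the 3 models at least 8-fold lower (0.0207% of those tested), with 79.2 and 76 CPM in the BSA libraries, against 686 and 629 CPM in the glucose libraries. Of the 23 lower models, 3 were under 5 CPM on BSA, 12 between 5 and 20 CPM and 8 at 20 CPM or more, so that most were still measured on BSA. The median of the 23 was 11.7 CPM on BSA and 58.2 CPM on glucose.

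The 2 read layouts, which differ in depth, gave the same direction for all 73 higher and all 23 lower models. Since the layouts count as 1 sample and the selection used both, this is only a description. In the paired-read libraries alone, 64 of the 73 and 18 of the 23 were past 4-fold, counting 3 models with 0 reads in the paired-read library of glucose as past it. In the single-read libraries alone, 73 of the 73 and 22 of the 23 were past 4-fold. The log2 ratios of the higher models ran from 1.29 to 8.17 in the paired-read libraries (70 models with a ratio) and from 2.01 to 9.42 in the single-read libraries. Applied to each layout by itself, the limits of 4-fold and 20 CPM gave 99 higher (0.683%) and 57 lower (0.393%) models in the paired-read libraries, and 74 higher (0.51%) and 22 lower (0.152%) in the single-read libraries. In the shallower paired-read libraries 1 read was worth 1.16 CPM for BSA and 0.991 CPM for glucose, against 0.0529 and 0.043 CPM in the single-read libraries.

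**Figure D3:**
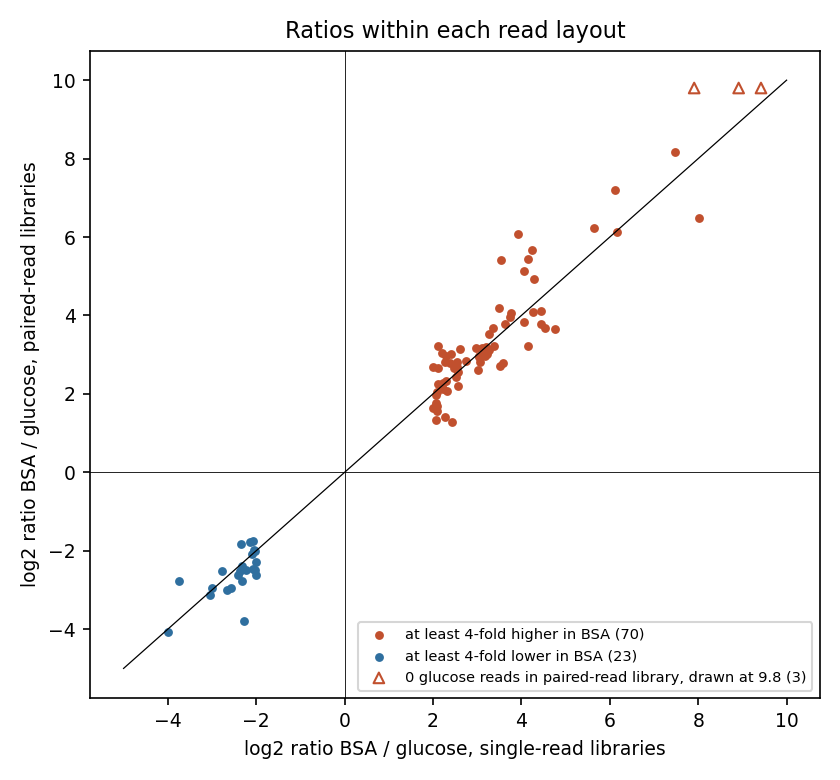
Log2 ratio of BSA to glucose in the paired-read libraries (vertical axis) against the single-read libraries (horizontal axis) for the 73 higher and 23 lower models. All points lie in the quadrants of equal sign; open triangles mark the 3 models with 0 reads in the paired-read library of glucose, drawn at the top of the axis.

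Gene model length moved with the difference between BSA and glucose. Among the 8483 models that reached 20 CPM, the median log2 fold change was -0.52 for models up to 300 nt (50 models), -0.48 for 301 to 500 nt (263 models), -0.36 for 501 to 1000 nt (2007 models), -0.01 for 1001 to 2000 nt (3989 models), 0.25 for 2001 to 3000 nt (1371 models), 0.39 for 3001 to 5000 nt (654 models) and 0.61 for models over 5000 nt (149 models). On BSA 95.3% of those over 5000 nt were higher than on glucose, and 20% of those up to 300 nt. From 501 nt upwards the medians increased from class to class in both layouts, while the classes up to 300 nt and 301 to 500 nt changed places, at -0.59 and -0.6 in the paired-read and -0.5 and -0.48 in the single-read libraries. The medians over 5000 nt were 0.62 in the paired-read and 0.61 in the single-read libraries. With the trend of the fold change on length removed, 70 higher and 17 lower models were past 4-fold, and these held 64 of the 73 and 15 of the 23. The log2 fold changes of the models named by rule were then 9.58 for 20533, 9.06 for 20508, -3.74 for 184808 and -3.48 for 134334, in place of 9.39, 8.91, -3.99 and -3.72.

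The large changes did not simply follow this order. Of the 73 higher models, 13 were under 500 nt, a class with a median below 0, and 7 were over 5000 nt. As background, 313 of the 8483 models that reached 20 CPM were up to 500 nt long, and 149 were over 5000 nt. The 13 include the 6 short abundant models. The 7 long models, of 5596 to 11832 nt, had 20.8 to 195 CPM on BSA and 2.91 to 30.4 CPM on glucose. The longest of them, 169065 (11832 nt), had 199 and 191 CPM in the BSA libraries, against 24.8 and 36 CPM in the glucose libraries. None of the 23 lower models was longer than 1701 nt, and 6 of them were up to 500 nt long. Among the 8483 models, 1371 had 2001 to 3000 nt and 803 were over 3000 nt. With models under 500 nt left out, an alternative added after the data were seen, 64 higher and 15 lower models were past 4-fold.

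**Figure D4:**
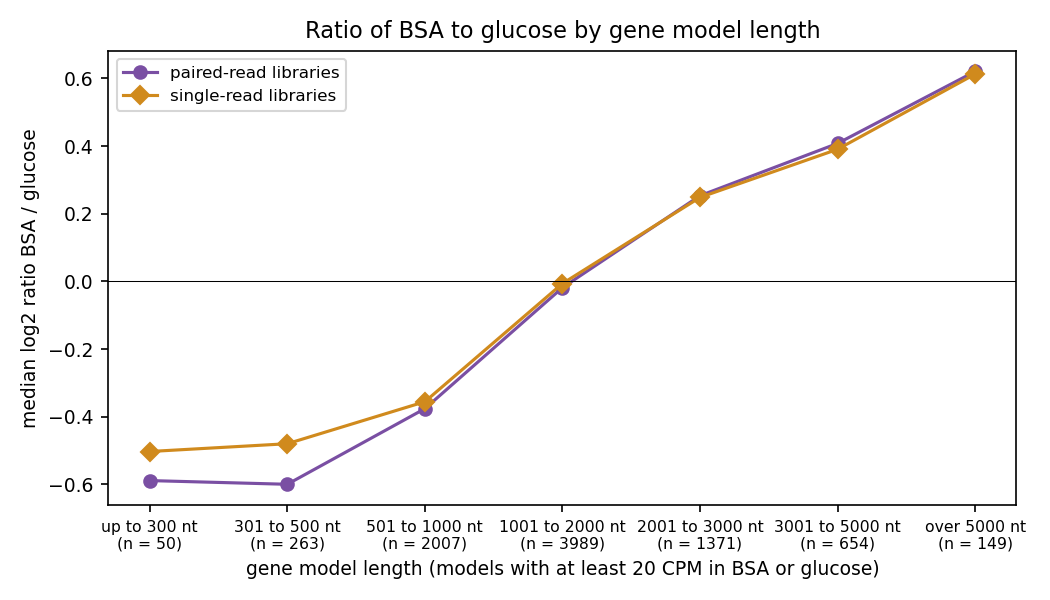
Median log2 ratio of BSA to glucose in 7 classes of gene model length, for the paired-read (circles) and single-read (diamonds) libraries, with the number of models with at least 20 CPM in each class. The medians run from below 0 for short models to about 0.6 over 5000 nt in both layouts.

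The level of a model also moved with its fold change. Models with a geometric mean of 1 to 5 CPM over BSA and glucose had a median log2 fold change of -0.28 (2470 models), and 23.6% of them differed at least 2-fold. In the paired-read libraries 1 read was worth 1.16 CPM for BSA and 0.991 CPM for glucose, so ratios at this level carry a large counting error there. Its part in the 23.6% was not tested. Models of 100 to 500 CPM had a median of 0.06 (2059 models), and 5.93% of them differed at least 2-fold. Above 500 CPM the share was 13.8% (224 models), a class that held 9 of the 73 higher and 1 of the 23 lower models. The models of 1 to 5 CPM had a median length of 1002 nt and those of 100 to 500 CPM of 1548 nt, so level and length moved together here.

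Levels on peat, the third amendment of the series, are given beside those of BSA and glucose. The 73 higher models had medians of 91.5 CPM on BSA, 48.6 CPM on peat and 11.6 CPM on glucose. On peat, 20 of them were above both BSA and glucose, 40 lay between and 13 were below both. As background, of the 8483 models that reached 20 CPM, 2315 were above both, 3676 lay between and 2492 were below both. A position above both on peat thus marks the higher models out little. Of the 19 models at least 16-fold higher on BSA, 12 were higher still on peat, and none was below glucose there. Most of the 12 belonged to the runs of neighbouring protein IDs from 20506 to 20533, described below. Choosing the 19 by a low glucose level relative to BSA also favours peat levels above glucose. The models 20533 and 20508 had 139 and 144 CPM on peat. All 6 short abundant models and 208821 lay between, at 0.394 to 0.455 times their BSA level and 3.25 to 4.03 times their glucose level. The short model 139563, left out of that group by the 8-fold limit, had means of 1994 CPM on peat and 1860 CPM on BSA. In contrast, 4 of the 73 were under 1 CPM on peat, with 58.8 to 268 CPM on BSA and 4.09 to 31.9 CPM on glucose. Among all 8483 models that reached 20 CPM, 7 were under 1 CPM on peat.

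The lower models were likewise mixed on peat. The 23 had medians of 11.7 CPM on BSA, 40.9 CPM on peat and 58.2 CPM on glucose. On peat 13 lay between BSA and glucose, 6 were above both and 4 were below both. For all 8483 models that reached 20 CPM, these counts were 3676, 2315 and 2492. The models 183593 (479 nt) and 148651 (969 nt) were at least 4-fold lower on BSA but over 2 times their glucose level on peat. For 183593 the values were 163 and 173 CPM in the BSA libraries, 2286 CPM on peat as a mean, and 993 and 915 CPM in the glucose libraries. The model 22366 was lower on both, with a mean of 310 CPM on peat, 684 CPM on BSA and 3473 CPM on glucose. Peat libraries were in the fit for the layout effect and the spread, and also took part in the filter on low counts and in the TMM factors. With the 4 libraries of BSA and glucose alone 75 higher and 22 lower models were past 4-fold.

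**Figure D5:**
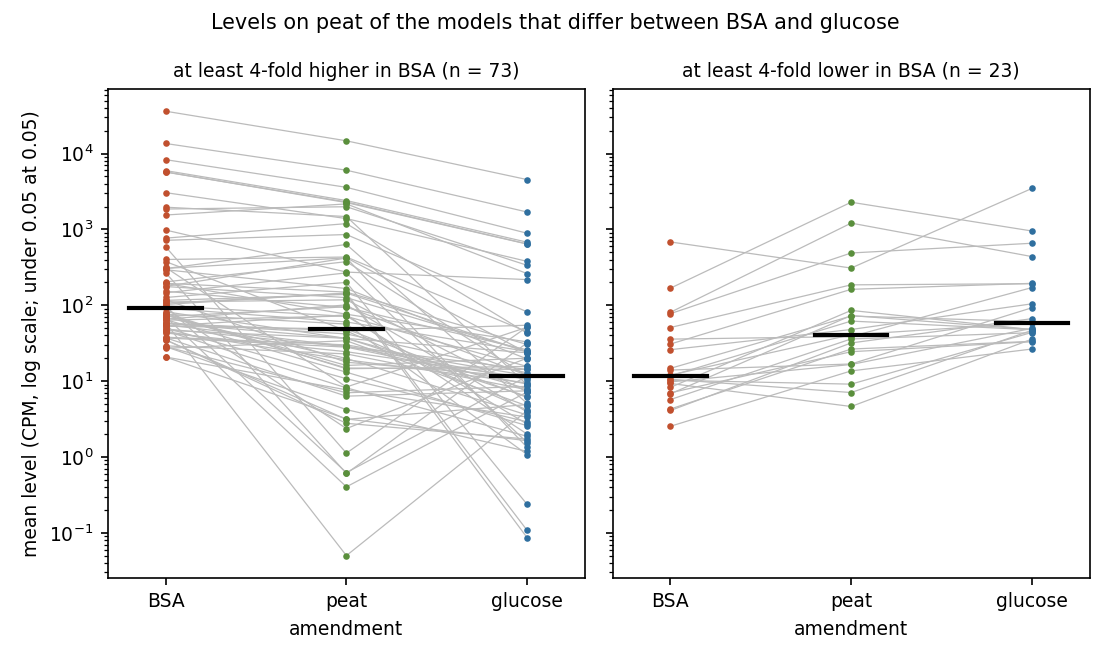
Mean level in CPM (log scale) on BSA, peat and glucose of the 73 models at least 4-fold higher (left) and the 23 at least 4-fold lower (right) on BSA than on glucose; thin lines join a model and black bars are medians. Peat levels of the higher models spread from above BSA to below glucose, with a median of 48.6 CPM.

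Higher models often had protein IDs next to each other. Among the 14497 tested IDs in numeric order, 23 of the 73 higher models (31.5%) had another higher model as direct neighbour, and 0.945% of all tested models had one. None of the 23 lower models had a lower neighbour, against 0.317% of all tested. The longest run was of 6 models from 20506 to 20529, with levels of 53.6 to 768 CPM on BSA and 0.107 to 81.9 CPM on glucose. A run of 3 from 20531 to 20533 had 116 to 178 CPM on BSA and 0.086 to 1.33 CPM on glucose. A run of 4 from 139563 to 139577 held 3 of the 6 short abundant models. This was noticed after the values were seen, and the files do not say whether neighbouring IDs are neighbours in the genome.

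The edgeR quasi-likelihood test on the reads called 4234 models higher (29.2% of those tested) and 4976 lower (34.3%) on BSA at a Benjamini-Hochberg adjusted p under 0.05. This test compares the libraries and not the carbon sources, because its error held sequencing noise between libraries of 1 sample. The balance of the calls depended on the scaling: 46% were higher on BSA with TMM factors, 48.9% with RLE size factors and 31.6% with total counts, which placed the median log2 fold change of all models at -0.24 in place of -0.08. It was 51.6% when the 20 most abundant models were left out, and 55% with DESeq2, which changes the test and the scaling together. The counts at 4-fold moved less, with 59 higher and 27 lower models by total counts. Without the BSA single-read library 79 higher and 46 lower models were past 4-fold, and without the glucose single-read library 92 and 32.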

How the data were processed

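The unique and total gene reads per model are counts deposited by the authors, per the file headers, and RPKM values stand beside them as the authors' deposited values. Every RPKM solved for 1 whole-number length per model (all 90022 values with reads, tolerance 0.01 nt), so RPKM was scaled to total gene reads. Which aligner, counter and trimming were used is not stated in these sources. Total gene reads of all 16703 models in 6 libraries were fitted with edgeR 4.0.16 (limma 3.58.1, R 4.3.3): TMM factors, filterByExpr (14497 models), terms for condition and read layout (2 residual degrees of freedom), quasi-likelihood test with Benjamini-Hochberg adjustment. It was also run on simulated counts drawn independently for each library, which cannot show how cultures vary. A fold of a single model is the ratio of scaled reads summed over libraries, with an exact (Clopper-Pearson) 95% interval. Called means at least 4-fold and at least 20 CPM in the higher condition. The 2 higher and 2 lower models with the largest fitted fold changes among those called were named, of equal direction in both layouts and with an adjusted p under 0.05. Each condition held 1 library of each read layout, per the titles, and layout was the block. Models and groups were chosen with earlier results of these data known. DESeq2 1.42.0 and the other alternatives are in the closing section.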

Additional observations from a re-analysis of the deposited data

Results flagged for a closer look

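Reads that match more than 1 gene model, which the levels above count together with unique reads, made up a larger share of reads on BSA. They made up 1.07% (1.05 to 1.1) of the paired-read library and 2.09% (2.09 to 2.1) of the single-read library of BSA, against 0.164% (0.156 to 0.173) and 0.309% (0.307 to 0.311) on glucose. The 4 short abundant models with shared reads held 98.5% and 97.9% of these reads on BSA, against 84.5% and 81% on glucose. No other of the 73 higher models, and none of the 23 lower models, had over 1% shared reads in the single-read library of BSA. With unique reads in place of total reads, 71 higher and 23 lower models were past 4-fold.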

How the results depend on the processing

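The 73 higher and the 23 lower models at 4-fold were each recounted under every alternative. Of these 34 counts, 31 stayed within 1.5 times. The exceptions were all counts of lower models, at 46 without the BSA single-read library, 15 without models under 500 nt and 12 with a minimum of 50 CPM. The sign of the 4 models named by rule held in all 58 values, which choosing them for size on these libraries favours. In the paired-read libraries alone, counted separately, 57 were lower. Leaving out 1 library gave 73 to 92 higher and 21 to 46 lower models and 87.4% to 91.7% within 2-fold, with the extremes without a single-read library (46 lower without that of BSA, 92 higher without that of glucose). The 2 single-read libraries also decided the number of edgeR calls, at 1507 to 4362 higher and 1421 to 4856 lower, with 1507 and 1421 without that of BSA and 1517 and 1489 without that of glucose. DESeq2 called 2066 higher and 1689 lower. Without the layout block edgeR called 3073 higher and 3528 lower, and 72 and 22 models were past 4-fold. By unique reads the 73 higher models took 8.13% of the reads on BSA and 1.06% on glucose, in place of 9.97% and 1.3% by total reads. The 100 most abundant models took 21.3% on BSA by unique reads, in place of 22.4%. By RPKM the 10 most abundant models took 21.8% on BSA and 5.6% on glucose, in place of 9.76% and 4.71% by reads, and the 100 most abundant 34.4% and 21.8%, in place of 22.4% and 17%. Total count scaling placed the median log2 fold change at -0.65 up to 500 nt and 0.28 over 3000 nt, in place of -0.49 and 0.43. The fitted log2 fold changes of 20533 and 20508, 9.39 and 8.91, were 13.04 and 12.88 without the glucose single-read library, where glucose had 0 reads and the fitted value is no measure of size; that of 134334, -3.72, was -2.81 without the BSA single-read library. Apart from the libraries or models left out by construction, the cause was not tested. In the paired-read libraries 0 reads allowed up to 3.49 CPM on BSA and 2.97 CPM on glucose, so that low levels were not resolved there.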

Other observations

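Detection in 1 condition alone was rare. With 0 reads on glucose and at least 10 on BSA there were 7 models, and with 0 reads on BSA and at least 10 on glucose there were 4. Among the 7, the model 36690 (1719 nt), chosen because its values stood out, had 220 reads on BSA and the next had 24. The 4 models without reads on BSA had 10 to 13 reads on glucose. In the single-read libraries 0 reads allowed up to 0.159 CPM on BSA and 0.129 CPM on glucose, for counting error only.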
